A study of Mus musculus with 10 samples.

Results

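The tissue imprint comprises genes with similar levels in lymphatic and blood endothelial cells of the lymph node. Their level in lymphatic endothelial cells of the diaphragm was different. A gene entered when all 7 lymph node libraries lay on one side of all 3 diaphragm libraries and when the means of the 2 lymph node populations differed by at most 2-fold. The rule used the normalized count, which is the read count of a gene divided by the size factor of its library. Of 15327 genes tested, 3592 met it. They comprised 1587 lymph-node-high genes, or 10.4% of the genes tested, and 2005 diaphragm-high genes, or 13.1%.

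RNA was sequenced from 3 sorted populations of C57BL/6 mice aged 6 to 8 weeks, without a genetic change or a treatment in any group. LN-LEC (n = 4) were lymphatic endothelial cells of lymph nodes, LN-BEC (n = 3) were blood endothelial cells of the same kind of node, and D-LEC (n = 3) were lymphatic endothelial cells of the diaphragm, the muscle sheet below the lungs. The node libraries drew on pooled skin-draining and mesenteric nodes, so no single node type stands behind them. Cells were sorted as CD45-negative and CD31-positive and divided by podoplanin, so neither sort marker is a finding here, and diaphragm blood endothelial cells are not analysed here. Per the study, cells of each replicate came from several mice, so the spread is that between pools and not between animals, and the labels do not say whether pools of different groups shared mice.

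Lymphatic endothelial cells line the vessels that carry tissue fluid, antigen and leukocytes to the lymph node. Inside the node they line the sinuses, while blood endothelial cells form the capillaries and the high endothelial venules through which lymphocytes enter. Cells of every kind show fragments of their own proteins on MHC class I molecules, which are loaded by the TAP transporter after proteasome cleavage and are induced by interferon through IRF1 and NLRC5. The lymph node also supplies ligands of the TNF family that signal through the non-canonical NF-kB pathway, whereas the diaphragm is a muscle in constant movement, covered by mesothelium.

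The libraries held between 22429940 and 48906070 counts on genes. Within each population they were numbered here in the order of deposit, because the labels give no replicate numbers. Prox1, the transcription factor that sets lymphatic identity, had normalized counts of 7578 to 8343 in the LN-LEC libraries, 115 to 349 in the LN-BEC libraries and 6666 to 8777 in the D-LEC libraries, whereas the VEGF receptor gene Flt1, a blood endothelial marker, measured 150.4 to 255 in the LN-LEC libraries, 13648 to 15297 in the LN-BEC libraries and 39.1 to 86.8 in the D-LEC libraries. Both markers followed the labels of all 10 libraries. Ptprc, which encodes the CD45 that the sort removed, measured 33.7 to 50.8 in the LN-LEC libraries, 208 to 324 in the LN-BEC libraries and 9.09 to 21.4 in the D-LEC libraries. LN-LEC replicate 4 and LN-BEC replicate 3 stood apart from the other lymph node libraries, as 44 genes were at least 3-fold above every other lymph node library in both. For the other pairs of lymph node libraries the median of this count was 0 and the highest was 8. The 44 genes were led by genes that salivary gland is known to secrete, and the part of such tissue in the values below was not tested. Dcpp2, for example, measured 375, 239, 398 and 126294 in the LN-LEC libraries, 246, 1569 and 378041 in the LN-BEC libraries, and 349, 15.03 and 21.5 in the D-LEC libraries. Among the 44 were 8 lymph-node-high imprint genes (Lpo, Ehf, Mup5, Rab15, Tmem56, Krt23, Tfap2a and Spdef) and 1 diaphragm-high gene (Sel1l3). Without these 2 libraries the rule selected 1945 lymph-node-high and 2320 diaphragm-high genes.

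To show the regulatory DNA next to the values, promoter sequence was taken from RefSeq for genes whose levels are described here. The 200 bases before the annotated start are printed 5′ to 3′ on the strand of the gene, in the build GRCm38.p6. Capitals mark matches to short motifs that were searched on both strands. The first set holds the interferon-stimulated response element core GAAANNGAA, and was chosen from genes of antigen presentation and interferon defence. B2m lies at chr2:122147487-122147686 on the plus strand, Igtp at chr11:58199356-58199555 on the plus strand, and Gbp3 at chr3:142559844-142560043 on the plus strand, where 2 overlapping matches are read on the opposite strand.

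B2m: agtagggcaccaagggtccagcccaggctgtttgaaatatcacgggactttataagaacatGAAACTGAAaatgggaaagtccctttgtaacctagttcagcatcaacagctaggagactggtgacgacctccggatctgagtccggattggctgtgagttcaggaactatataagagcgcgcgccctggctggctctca

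Igtp: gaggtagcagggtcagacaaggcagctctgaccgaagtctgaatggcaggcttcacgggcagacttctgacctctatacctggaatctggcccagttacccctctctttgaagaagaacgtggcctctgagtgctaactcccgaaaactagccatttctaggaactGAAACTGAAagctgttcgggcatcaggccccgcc

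Gbp3: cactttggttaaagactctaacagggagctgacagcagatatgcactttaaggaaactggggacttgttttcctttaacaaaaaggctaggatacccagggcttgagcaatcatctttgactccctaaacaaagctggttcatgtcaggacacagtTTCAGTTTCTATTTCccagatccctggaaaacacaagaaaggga

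The second set holds the STAT-binding GAS core TTCNNNGAA, whose letters can overlap those of the first motif. It was chosen to show the transcription factor gene Irf1, at chr11:53769814-53770013 on the plus strand. It was also chosen for the cytokine receptor gene Csf2rb2, at chr15:78305722-78305921 on the minus strand, whose fold was among the highest of the imprint genes.

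Irf1: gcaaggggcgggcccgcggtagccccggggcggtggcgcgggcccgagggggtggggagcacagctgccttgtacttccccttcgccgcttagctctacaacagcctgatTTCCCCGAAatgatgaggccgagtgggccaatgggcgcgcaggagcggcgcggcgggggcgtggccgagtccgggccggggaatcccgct

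Csf2rb2: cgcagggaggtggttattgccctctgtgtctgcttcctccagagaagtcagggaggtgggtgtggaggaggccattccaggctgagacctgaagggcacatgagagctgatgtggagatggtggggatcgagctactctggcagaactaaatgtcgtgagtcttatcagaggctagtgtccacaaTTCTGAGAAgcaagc

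The third set holds the AP-1 motif TGANTCA, the site of Fos and Jun proteins, in diaphragm-high genes. Htr2b lies at chr1:86111981-86112180 on the minus strand and Tnxb at chr17:34670335-34670534 on the plus strand.

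Htr2b: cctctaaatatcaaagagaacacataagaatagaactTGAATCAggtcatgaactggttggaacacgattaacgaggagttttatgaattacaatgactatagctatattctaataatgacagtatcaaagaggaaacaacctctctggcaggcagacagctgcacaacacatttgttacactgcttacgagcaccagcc

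Tnxb: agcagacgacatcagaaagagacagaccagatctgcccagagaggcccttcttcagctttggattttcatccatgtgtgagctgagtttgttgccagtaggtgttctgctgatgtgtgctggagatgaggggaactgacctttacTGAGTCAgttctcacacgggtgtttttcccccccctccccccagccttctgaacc

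A match is a description of letters and not a binding site. The B2m match began 139 bases before the start, the Igtp match 34 bases, the outer Gbp3 match 44 bases, the Irf1 match 90 bases, the Csf2rb2 match 15 bases, the Htr2b match 163 bases and the Tnxb match 55 bases before it. In windows of 300 bases around the start, 2129 windows of 1632 diaphragm-high genes held the AP-1 motif in 5.54% and the response element core in 5.03%, against 5.89% and 7.23% of the 15198 windows of all genes tested and 7.81% and 8.56% of all 32851 windows in the table. The median GC content was 61.0%, 59.7% and 52.7% in these sets. For the MHC class I list, 4 of 20 windows held the response element core. The same share over the lymph-node-high genes is void, because promoters were matched for 1260 of 1587 of them, or 79.4%, which is under the 80% required.

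Folds were larger on the lymph node side and members more numerous on the diaphragm side. The median fold between the mean of the 2 lymph node populations and D-LEC was 1.94 for lymph-node-high and 1.58 for diaphragm-high genes. At least 2-fold was reached by 751 and 625 of them, at least 10-fold by 169 and 87, and at least 50-fold by 38 and 14. Folds under 1.5 made up 422 and 859 genes. Where no library of the lower side had more than 3 counts, as in 125 lymph-node-high and 56 diaphragm-high genes, the fold counted here was computed at that floor. Within the lymph node the LN-LEC mean was the higher one in 49.2% of lymph-node-high and 52.0% of diaphragm-high genes, and the median ratio of the 2 means was 1.20 and 1.15.

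**Figure D1:**
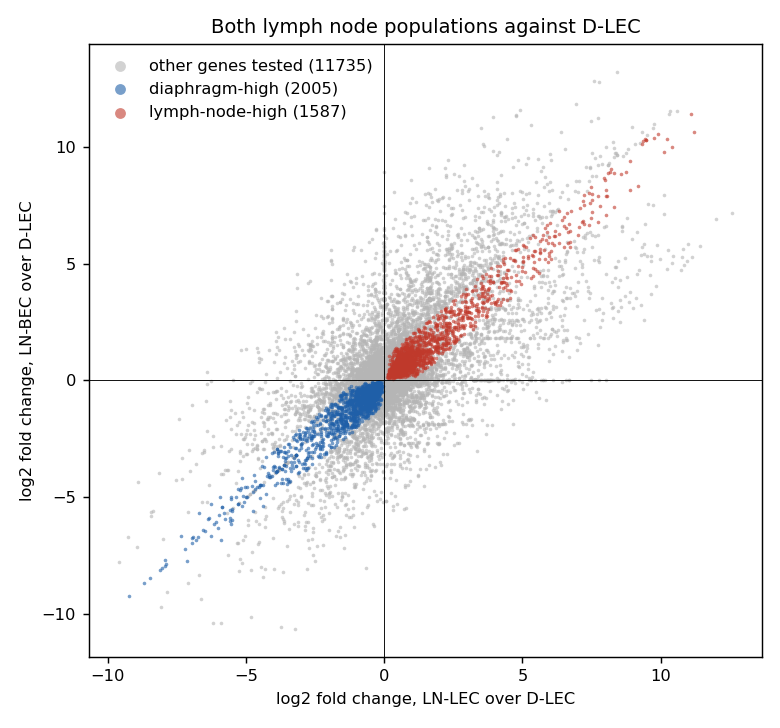
The log2 fold change of LN-LEC over D-LEC (horizontal axis) is plotted against that of LN-BEC over D-LEC (vertical axis), both from edgeR, with 1 point per gene tested. The 1587 lymph-node-high genes lie in the upper right along the diagonal and the 2005 diaphragm-high genes in the lower left, because the rule limits the difference of the lymph node means, and D-LEC enters both axes.

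These counts describe a rule and are read against what it leaves. Without the 2-fold limit, 2442 genes, or 15.9% of those tested, had all lymph node libraries above the diaphragm libraries and 2587, or 16.9%, had them below. The 855 lymph-node-high genes that the limit removed were higher in LN-LEC in 324 cases and higher in LN-BEC in 531. Among the 582 removed on the diaphragm side these were 376 and 206. edgeR's quasi-likelihood test with Benjamini-Hochberg adjustment, applied to the mean of the 2 lymph node populations against D-LEC, called 25.7% of all genes higher and 23.8% lower in the lymph node. The same fit called 446 lymph-node-high and 542 diaphragm-high members different between LN-LEC and LN-BEC, within the 2-fold limit. Since the members were chosen on the same libraries, their calls are no support for the rule. The counts of each list and family below are to be set beside these shares of calls, and beside 10.4% lymph-node-high and 13.1% diaphragm-high.

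A left-out library can be placed by a rule set on the others, though not independently of it. The libraries it was compared with also chose the genes, and the values compared were scaled with all 10 libraries. The shares that follow therefore describe the rule and are no support for it. When each lymph node library was left out in turn and the rule was set on the other 9, the left-out library lay beyond the D-LEC libraries for 91.2% to 97.8% of the lymph-node-high genes so chosen, against 37% to 40.1% of all genes. For diaphragm-high genes it did so in 92% to 97.8%, against 34.9% to 36.1%. A left-out D-LEC library lay beyond all lymph node libraries for 83% to 86.2% and 83.8% to 87.3% of the genes, against 23.4% to 25.6% and 24.3% to 27.3% of all genes. The lowest lymph node values belonged to LN-BEC replicate 3 on both sides. The lymph-node-high genes took 14.2% to 16.6% of the counts of LN-LEC libraries, 11.9% to 14% of LN-BEC and 6.64% to 7.05% of D-LEC libraries. The diaphragm-high genes took 17.1% to 18.4%, 14.8% to 16.4% and 30.2% to 31.4%.

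Antigen presentation by MHC class I had the highest share of lymph-node-high genes among the functional lists. Of 22 genes tested from a list of this pathway, 19 were lymph-node-high, none was diaphragm-high, and edgeR called 20 higher with a median log2 difference of 1.60. This compares with 10.4% lymph-node-high and 25.7% called higher among all genes. B2m, at mm9 chr2:121973423-121978818, encodes the invariant light chain of class I molecules. Its normalized counts were 494797, 454795, 563879 and 420444 in the LN-LEC libraries, 427751, 443449.5 and 458159.6 in the LN-BEC libraries, and 59605, 74523 and 75279 in the D-LEC libraries. The 7 lymph node values lay close together and the diaphragm values were 6.64-fold lower, without overlap. By FPKM, which also divides by transcript length, B2m ranked 2 among LN-LEC genes, 4 in LN-BEC and 6 in D-LEC, so it was among the most abundant transcripts on both sides.

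The heavy chain gene H2-K1 on chromosome 17 measured 215952, 200381, 227664 and 253628 in the LN-LEC libraries, 172671, 194665 and 227509 in the LN-BEC libraries, and 29092, 26958 and 30664 in the D-LEC libraries. It was 7.31-fold higher in the lymph node, and it held FPKM rank 6 among LN-LEC genes, 12 among LN-BEC and 64 among D-LEC genes. H2-D1, the other classical heavy chain gene of this strain, was 3.90-fold higher. The nonclassical genes varied more, from 1.52-fold for H2-T23 and 1.95-fold for H2-M3 to 7.12-fold for H2-Q4. H2-Q6 was barely counted in the diaphragm, with 448, 441, 527 and 348 in the LN-LEC libraries, 356, 395 and 271 in the LN-BEC libraries, and 1.26, 5.01 and 2.48 in the D-LEC libraries. The H2-Q genes are near copies of each other, and reads that fitted several genes were not counted, so the values of single members are uncertain.

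Peptide supply showed the same order. Psmb8 and Psmb9 encode catalytic subunits of the immunoproteasome and lie next to the transporter genes Tap1 and Tap2. Psmb8 measured 4975, 4133, 5399 and 4430.1 in the LN-LEC libraries, 4039, 4356 and 4428 in the LN-BEC libraries, and 474, 593 and 628 in the D-LEC libraries. Tap1, which moves peptides into the endoplasmic reticulum, measured 3889.99, 3489.8, 4310.4 and 3675 in the LN-LEC libraries, 3340.4, 3486 and 3464 in the LN-BEC libraries, and 537, 481 and 681 in the D-LEC libraries. In both genes each population kept within a narrow range and the diaphragm libraries were the 3 lowest. Psmb9 was 7.46-fold and Psmb10 4.88-fold higher, whereas the proteasome activator genes Psme1 and Psme2 were 2.13-fold and 2.12-fold higher. Tap2, Tapbp, Tapbpl and the trimming peptidase gene Erap1 were 3.65, 2.36, 2.44 and 2.19-fold higher. Nlrc5, the transactivator of class I genes, measured 5247, 5172, 5145 and 5196 in the LN-LEC libraries, 4688, 5165 and 4694 in the LN-BEC libraries, and 737, 699 and 772 in the D-LEC libraries, with little spread inside either tissue.

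The chaperones of class I folding were outside the imprint. Calr, Canx and Pdia3 serve glycoproteins in general and were the 3 tested members of the list outside the imprint, with log2 differences of 0.33 ± 0.09 (SE), -0.03 ± 0.09 and 0.19 ± 0.09 in the edgeR fit, of which Calr was called higher (adjusted p = 0.00807). H2-DMb1, Psmb9, Tap1, Psmb8 and Tap2 formed an uninterrupted run of lymph-node-high genes at mm9 chr17:34290136-34353266, with folds of 3.65 to 18.2. H2-D1, H2-Q1, H2-Q4, H2-Q8 and H2-Q6 formed another at chr17:35400039-35565306.

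MHC class II genes rose in the lymph node as well, but 9 of 12 tested were outside the imprint, 8 of these because the 2 lymph node means differed by over 2-fold. All 12 tested members were called higher by edgeR, with a median log2 difference of 3.61, and 3 were imprint genes. These were H2-DMb1, a peptide editor of class II molecules (18.2-fold higher), the invariant chain gene Cd74 (35.00-fold) and the protease gene Ctsl (3.93-fold). B cells carry class II molecules, and most of their markers were higher in the lymph node too. Of 10 B cell markers tested, 9 were called higher and 2, Cd79b and Cr2, were imprint genes. Their summed level was 768 to 1596 over the LN-LEC libraries, 1309 to 1827 over LN-BEC and 165 to 178 over D-LEC libraries. In bulk libraries a smaller number of cells of one type and less RNA per cell cannot be told apart, and the part of B cells in the class II values was not tested.

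Interferon-response genes were mostly part of the lymph node side. Of 26 tested, 17 were lymph-node-high and 25 were called higher, with a median log2 difference of 1.37, and the one not called was Irf9 (0.10 ± 0.09, adjusted p = 0.38, edgeR). Among the transcription factors, Stat2 was 1.88-fold higher. Irf1 measured 2506, 2272, 3095 and 2181 in the LN-LEC libraries, 3604, 3710.02 and 3671 in the LN-BEC libraries, and 659.7, 842 and 909 in the D-LEC libraries. The LN-BEC libraries were highest, the LN-LEC libraries next and the D-LEC libraries lowest, with no overlap between the 3 populations. Irf7 was 6.38-fold higher. Of the effectors, Oas1a, a sensor of double-stranded RNA that activates RNase L, was 10.6-fold higher, Rtp4 5.51-fold, Mx2 3.07-fold and the tetherin gene Bst2 2.80-fold. Isg15, Ifit1, Ifit2, Ifih1, Ddx58 and Usp18 were between 1.63-fold and 2.66-fold higher.

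The interferon receptors lie together and were part of the imprint. Ifnar2, Il10rb, Ifnar1 and Ifngr2 formed a run at mm9 chr16:91373028-91564252 with folds of 1.64 to 2.98, highest for Ifngr2, a chain of the interferon gamma receptor. Its partner Ifngr1, on another chromosome, was 1.74-fold higher. The GTPases that interferon gamma induces against intracellular pathogens had 12 lymph-node-high genes of 14 tested, and all 14 were called higher with a median log2 difference of 1.84. Ifi47 measured 4560.1, 4229.9, 4359 and 5836 in the LN-LEC libraries, 4251, 4929 and 5321 in the LN-BEC libraries, and 193, 199 and 284 in the D-LEC libraries, which is 21.2-fold higher in the lymph node. Tgtp2 measured 932, 752, 1003 and 798 in the LN-LEC libraries, 1083, 1146 and 1007 in the LN-BEC libraries, and 37.8, 43.1 and 39.7 in the D-LEC libraries. In both genes the lowest lymph node library was far above the highest diaphragm library. The guanylate-binding genes had smaller folds, from 2.02-fold for Gbp7 and 2.04-fold for Gbp3 to 4.46-fold for Gbp8, 6.08-fold for Gbp10 and 11.4-fold for Gbp11, the last 2 outside the list, and Igtp was 3.41-fold higher. Gbp2 and Gbp4 were the 2 outside the imprint. Gbp and Tgtp genes have close copies, so the split of reads among them is uncertain.

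**Figure D2:**
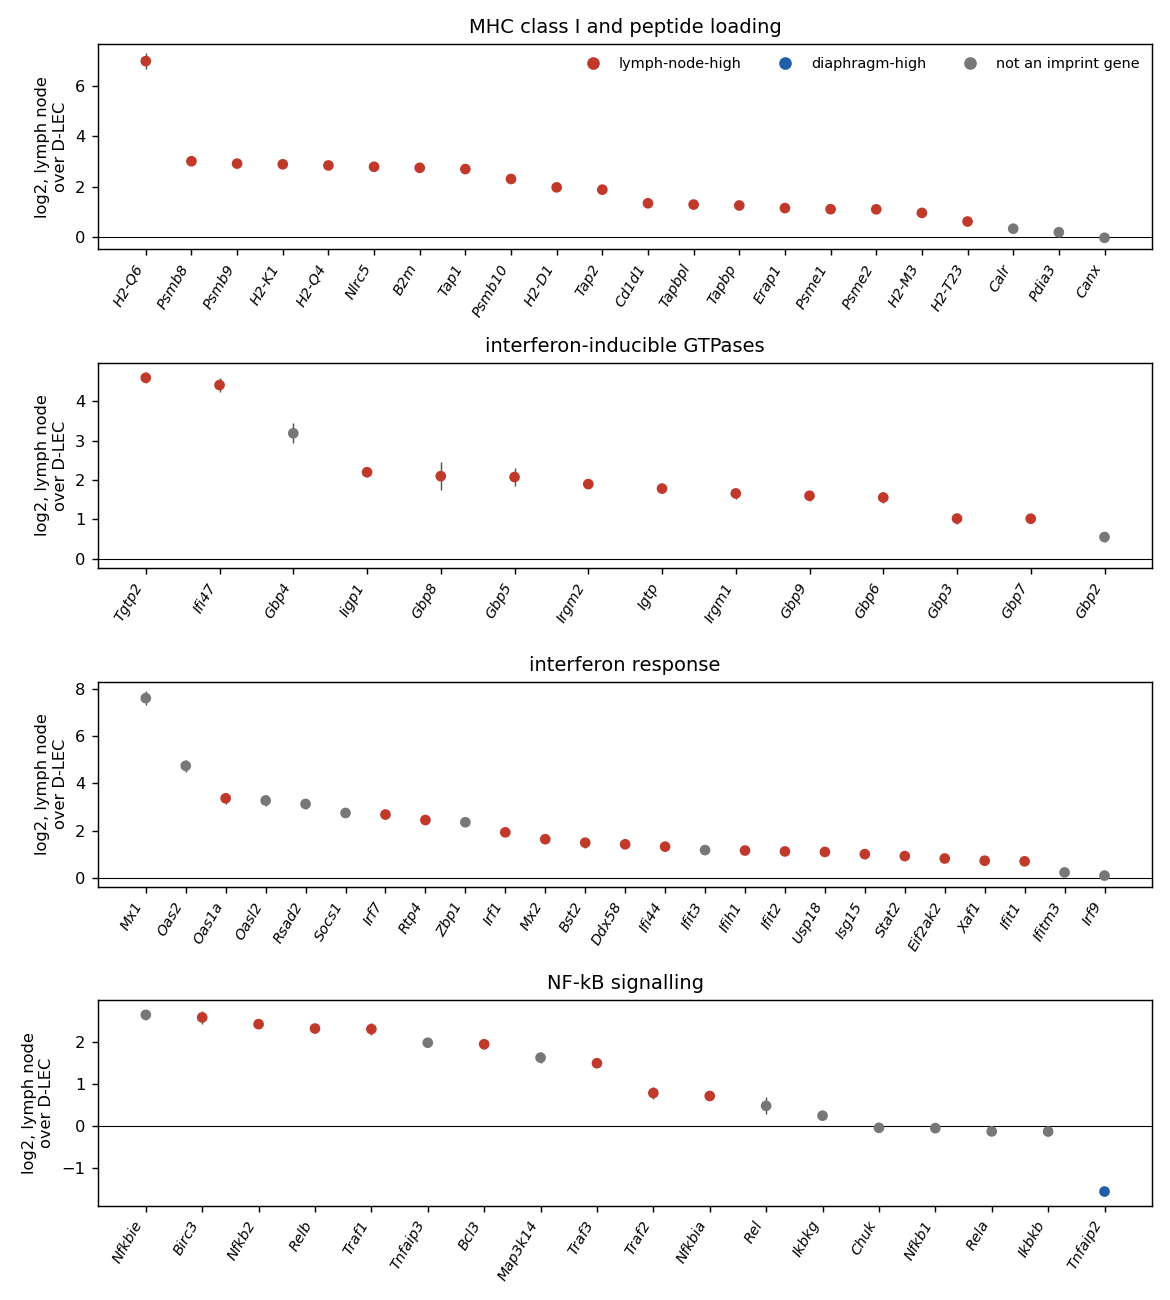
Each point is 1 gene, placed by its log2 difference between the mean of the lymph node populations and D-LEC from edgeR, with the standard error as a bar, for MHC class I, GTPase, interferon-response and NF-kB lists, of which 1 interferon-response gene is not shown. Red points are lymph-node-high, blue diaphragm-high and grey not imprint genes, and red points fill most of the upper 2 panels while the NF-kB panel holds 8 red points and 1 blue point, Tnfaip2.

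Counts by family name show how far other interferon-linked genes took part. Of 11 Gbp genes tested, 8 were lymph-node-high, of 12 Parp genes 5 and of 8 Oas genes 4, with no diaphragm-high gene. Families with members on both sides were Trim (16 lymph-node-high and 5 diaphragm-high of 58), Irf (3 and 1 of 11), Ifi (3 and 1 of 10) and Slfn (3 and 1 of 9). When counts were scaled by library totals instead of size factors, 7 Gbp and 5 Parp genes were lymph-node-high and Trim had 15 and 6. A run of Trim34b, Trim12c, Trim30b, Trim30a and Trim30d at mm9 chr7:111477985-111656363 had folds of 2.13 to 70.2, with 9.40-fold for Trim30a and 70.2-fold for Trim30d, which are close copies. Parp14, 4.96-fold higher, lay in a run with Hspbap1, Dtx3l and Parp9 at chr16:35770472-35972707. Slfn5, Slfn9 and Slfn8 ran together with Unc45b at chr11:82724755-82834312.

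The NF-kB pathway list had 8 lymph-node-high genes and 1 diaphragm-high gene of 18 tested, and edgeR called 12 higher and 1 lower. Nfkb2 and Relb, the subunits of the non-canonical branch, were 5.36 and 5.14-fold higher. Nfkb2 measured 5179.7, 4927, 5136 and 5176 in the LN-LEC libraries, 3305, 3935 and 3595 in the LN-BEC libraries, and 884, 807 and 749 in the D-LEC libraries. LN-LEC libraries were highest, LN-BEC libraries followed, and D-LEC libraries did not overlap with either. Of the canonical branch, the inhibitor gene Nfkbia was 1.62-fold higher and lymph-node-high, and Nfkbie and Tnfaip3, whose lymph node means differed by over 2-fold, were called higher with log2 differences of 2.64 ± 0.12 and 1.97 ± 0.10 (SE). The subunit genes Nfkb1 and Rela were outside the imprint, with log2 differences of -0.06 ± 0.09 and -0.13 ± 0.08, and those of the IKK complex, Chuk, Ikbkb and Ikbkg, had -0.05 ± 0.08, -0.14 ± 0.08 and 0.24 ± 0.09, of which Ikbkg was called higher (adjusted p = 0.0359 by edgeR). Traf1, Birc3, Bcl3 and Traf3, which regulate or answer this pathway, were 4.91, 6.05, 3.87 and 2.82-fold higher. Tnfaip2 went the other way and was 2.97-fold higher in the diaphragm.

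TNF family ligands and receptors had 9 lymph-node-high and no diaphragm-high gene of 25 tested, with 17 called higher and 2 lower. Among ligands, Tnfsf11, which encodes RANKL, had no count in any D-LEC library and was at least 7.70-fold higher, and Tnfsf10, which encodes TRAIL, was 8.01-fold higher. Of the receptors, Relt was 41.4-fold, the decoy receptor gene Tnfrsf23 7.69-fold and Tnfrsf14 4.78-fold (95% counting interval 2.43 to 11.1) higher. Ltbr, the lymphotoxin beta receptor that acts upstream of Relb, differed by 1.39-fold without overlap. Relt measured 776, 826, 851 and 899.6 in the LN-LEC libraries, 612, 707 and 594 in the LN-BEC libraries, and 20.2, 20.04 and 13.2 in the D-LEC libraries. The lymph node libraries lay between 594 and 900.

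Ligands of T cell costimulation and inhibition and genes of pathogen sensing were lymph-node-high in 33.3% and 32%, against 10.4% of all genes. Cd274, which encodes the inhibitory ligand PD-L1, measured 12639.6, 11918, 13219 and 9222 in the LN-LEC libraries, 10164, 10040.4 and 8690.4 in the LN-BEC libraries, and 638, 962 and 1005 in the D-LEC libraries and was 12.3-fold higher. Its relative Pdcd1lg2, which encodes PD-L2, was 80.3-fold (95% counting interval 14.4 to 3173) higher, at 25.7 ± 14.1 in the LN-LEC, 41.8 ± 28.3 in the LN-BEC and 0.420 ± 0.728 in the D-LEC libraries (SD). The costimulatory ligand gene Icosl was 3.17-fold and Cd160 1.72-fold higher. Of 12 genes in this checkpoint list 4 were lymph-node-high, and edgeR called 5 (41.7%) higher and 3 (25%) lower, Cd200, Ido1 and Vtcn1. Among 25 pathogen-sensing genes, 8 were lymph-node-high and 1 diaphragm-high. Of these 25, 13 (52%) were called higher and 3 (12%) lower, against 25.7% and 23.8% of all genes. Tlr4, the receptor for bacterial lipopolysaccharide, measured 763, 823, 569.9 and 567 in the LN-LEC libraries, 367, 401 and 394 in the LN-BEC libraries, and 21.4, 25.05 and 19.8 in the D-LEC libraries. It was 24.2-fold higher in the lymph node, its partner Ly96 1.95-fold, and the coreceptor gene Cd14 was the exception, 3.26-fold higher in the diaphragm.

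Cytokine receptors gave the highest folds of the imprint when folds on very low diaphragm counts were computed at the floor. Without the floor, Col6a4 was higher, at 1352-fold (95% counting interval 243 to 53382). Mup5, at 1064-fold (95% counting interval 191 to 42016), then exceeded Csf2rb. Csf2rb encodes the shared beta chain of the receptors for IL-3, IL-5 and GM-CSF, and Csf2rb2 a copy of it with a preference for IL-3. Csf2rb2 measured 21981, 22547, 25124 and 19702 in the LN-LEC libraries, 16671, 19426 and 15172 in the LN-BEC libraries, and 37.8, 4.01 and 12.4 in the D-LEC libraries, which is 1090.4-fold higher in the lymph node. Csf2rb measured 11868, 11438, 12592 and 10240.1 in the LN-LEC libraries, 20731, 22195 and 19199.9 in the LN-BEC libraries, and 25.2, 18.04 and 8.26 in the D-LEC libraries, a fold of 939. In both genes each lymph node library stood far above the diaphragm maximum of 37.8, and LN-LEC was higher for the first and LN-BEC for the second. The copies share sequence, so reads unique to either may be a part of the whole. Of 35 genes in the cytokine list, 13 were lymph-node-high and 2 diaphragm-high, with 22 called higher and 8 lower. Lifr, the receptor for leukaemia inhibitory factor, was 12.9-fold, Il18bp, a decoy for IL-18, 4.21-fold, Il13ra1 3.88-fold and the shared chain Il6st 2.46-fold higher, while Il6ra was 6.74-fold and Il11ra1 1.77-fold higher in the diaphragm.

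Chemokine genes were called higher in 45.8%, against 25.7% of all genes, and were lymph-node-high in 16.7%, against 10.4%. Of 24 tested, 11 were called higher and 2 lower, 4 were lymph-node-high and 1, Ccl27a, was diaphragm-high. Cxcl9, an interferon-induced attractant of T cells, measured 2315, 1902, 6127 and 1799 in the LN-LEC libraries, 3799, 3753 and 5463 in the LN-BEC libraries, and 10.1, 24.05 and 26.4 in the D-LEC libraries. LN-LEC replicate 3 was the highest library, and the lowest lymph node library held 1799 against at most 26.4 in the diaphragm. Ccl5 was 16.6-fold, the neutrophil attractant gene Cxcl1 12.3-fold and the B cell attractant gene Cxcl13 7.42-fold higher. Cxcr7, which encodes a scavenging receptor for CXCL12, was 6.57-fold higher in the diaphragm and Ccrl2 4.47-fold higher in the lymph node. The adhesion list had 15 of 20 genes called higher, or 75%. In its imprint part were 2, Icam1 at 1.96-fold and Bst1 at 72.6-fold, or 10%, near the share of all genes.

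The genes with the highest folds were not all immune genes. Clu, which encodes the secreted chaperone clusterin, measured 121564, 111098, 105054 and 99614 in the LN-LEC libraries, 75104, 92827 and 74173 in the LN-BEC libraries, and 855, 617 and 1053 in the D-LEC libraries, and took FPKM rank 14 of LN-LEC genes, 24 of LN-BEC and 3843 of D-LEC genes. Apoe, a lipid carrier, was 30.5-fold and Tmem176a and Tmem176b 35.01 and 35.6-fold higher. Dsg2, a desmosomal cadherin, was 415-fold higher and Rassf6 905-fold (95% counting interval 354 to 3322) higher. Intervals of this kind are given where few counts stood on the lower side and cover counting error only. Cd247, the signalling zeta chain of the T cell receptor, measured 903, 781, 1133 and 815 in the LN-LEC libraries, 864, 785 and 851 in the LN-BEC libraries, and 3.78, 4.01 and 2.48 in the D-LEC libraries. This range was tight across both lymph node populations, whereas the T cell markers summed to 679 to 786 over LN-LEC, 708 to 1159 over LN-BEC and 1973 to 2583 over D-LEC libraries, led in the last by Cd2. Of 12 T cell markers, 9 were called higher and 2 lower, and 1, Tcf7, was an imprint gene, and their part in the Cd247 value was not tested. Spic, a transcription factor of splenic macrophages, was 166-fold (95% counting interval 64.7 to 608) higher, beside 17 myeloid markers of which 4 were called higher and 2 lower and 1, Tyrobp, was an imprint gene. Their sums were 715 to 946, 1081 to 1389 and 1467 to 1963.

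Further genes of this kind were Sh2b2, an adaptor of receptor kinases, at 204-fold, Extl1 at 197-fold, the collagen gene Col6a4 at 1352-fold (95% counting interval 243 to 53382), the dynein gene Dnahc8 at 147-fold and Fam181b at 291-fold (95% counting interval 125 to 897). Lpo and Mup5 are in this group too, with wide variation between lymph node libraries. Lpo, which encodes the lactoperoxidase of secretions, measured 577, 529, 426 and 2188 in the LN-LEC libraries, 636, 507 and 4181 in the LN-BEC libraries, and 5.04, 0 and 0 in the D-LEC libraries. Mup5, a major urinary protein gene, measured 108, 226, 132 and 759 in the LN-LEC libraries, 207, 138 and 1420.03 in the LN-BEC libraries, and 1.26, 0 and 0 in the D-LEC libraries. In both, LN-LEC replicate 4 and LN-BEC replicate 3 were highest, the libraries in which salivary genes stood out. Both genes left the imprint without LN-LEC replicate 4, LN-BEC replicate 1 or LN-BEC replicate 2, because the means of the 2 populations then differed by over 2-fold.

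**Figure D3:**
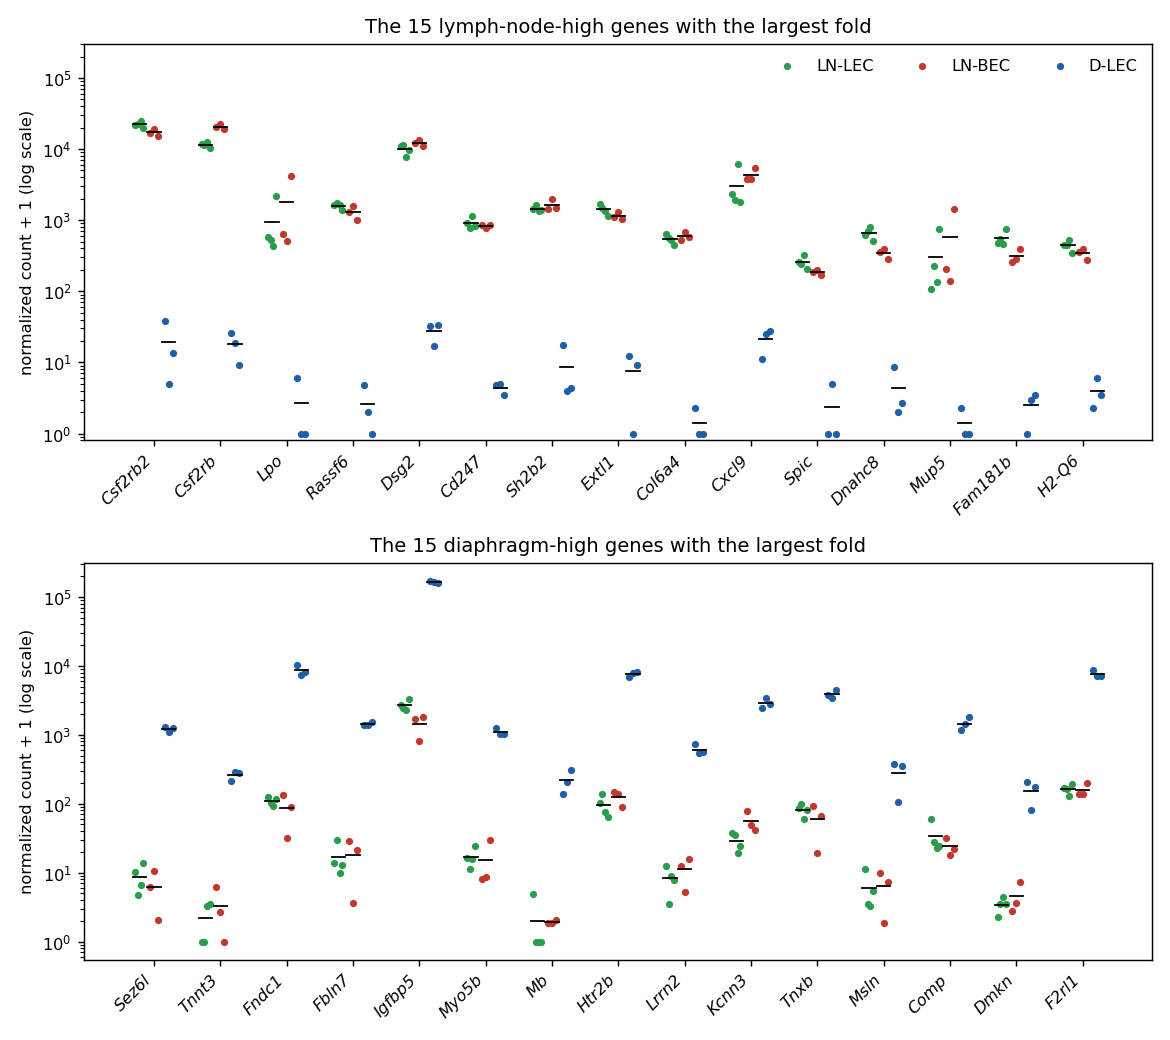
Normalized count + 1 on a log axis for the 15 lymph-node-high (upper panel) and 15 diaphragm-high genes (lower panel) with the largest folds, with 1 point per library coloured by population and a line at each population mean. Lymph node points and D-LEC points do not overlap in any gene, as the rule requires, and Lpo and Mup5 show 2 lymph node points far above the rest.

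Metabolic and patterning lists are set beside all genes, of which 10.4% were lymph-node-high, 13.1% diaphragm-high, 25.7% called higher and 23.8% called lower. Cd36, a fatty acid and thrombospondin receptor, was 30.3-fold, Pdk4, which diverts pyruvate from oxidation, 8.47-fold, and the monocarboxylate transporter gene Slc16a1 9.58-fold higher in the lymph node. Fabp3, a fatty acid carrier of muscle and heart, and the mitochondrial carrier gene Ucp2 were 6.20 and 8.38-fold higher in the diaphragm. The fatty acid list had 5 lymph-node-high (16.7%) and 4 diaphragm-high (13.3%) genes of 30 tested, with 14 (46.7%) called higher and 7 (23.3%) lower. Of 22 cholesterol genes, 3 (13.6%) were lymph-node-high (5 without LN-BEC replicate 3), with 11 (50%) called higher and 3 (13.6%) lower. Of 17 retinoid genes, 1 was lymph-node-high and 1 diaphragm-high (3 without LN-LEC replicate 3, LN-BEC replicate 1 or LN-BEC replicate 3, and 2 without LN-LEC replicate 2 or D-LEC replicate 3), with 5 called higher and 3 lower. The retinoid shares were 5.88% in each direction of the imprint, 29.4% called higher and 17.6% called lower. Among 30 Hox genes, which record position along the body, 4 (13.3%) were lymph-node-high and 13 (43.3%) were called higher and 6 (20%) lower. Hoxc8 was 8.43-fold and Hoxc6 14.2-fold (95% counting interval 5.54 to 52.1) higher in the lymph node. In a list of 50 other position genes Gata3 was 9.35-fold higher in the lymph node and Osr1 8.13-fold higher in the diaphragm. Of the 50, 20 (40%) were called higher and 12 (24%) lower, and 4% met the rule in each direction.

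Among the diaphragm-high genes with the largest folds, several encode secreted or matrix proteins, and the muscle genes Tnnt3 and Mb are described with the muscle markers. Igfbp5, at mm9 chr1:72904639-72921439, binds insulin-like growth factors in the matrix. It measured 2739, 2441, 2263 and 3344 in the LN-LEC libraries, 1707, 819.8 and 1789.7 in the LN-BEC libraries, and 169206, 166975 and 160001 in the D-LEC libraries. The 3 diaphragm values lay close together and were 79.98-fold above the lymph node, with FPKM rank 32 among D-LEC genes, 3870 among LN-LEC and 5812 among LN-BEC genes. Sez6l, a membrane protein gene known from neurons, measured 9.07, 3.81, 5.65 and 12.6 in the LN-LEC libraries, 5.25, 9.51 and 1.05 in the LN-BEC libraries, and 1303, 1105 and 1235 in the D-LEC libraries, with at most 12.6 in any lymph node library. Fndc1, a fibronectin-domain protein gene, measured 126, 103, 90.5 and 117 in the LN-LEC libraries, 134, 31.1 and 89.3 in the LN-BEC libraries, and 10246, 7360.2 and 8205 in the D-LEC libraries. Fbln7, Tnxb and Comp, which encode matrix glycoproteins, were 88.1, 55.7 and 52.2-fold higher.

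Other genes of this group encode receptors, a channel, a motor and an adhesion protein. Htr2b, a serotonin receptor, measured 99.8, 136, 74.6 and 64.1 in the LN-LEC libraries, 146, 137 and 89.3 in the LN-BEC libraries, and 6990.2, 7875 and 8058 in the D-LEC libraries, and F2rl1, the protease-activated receptor 2, measured 169.8, 159.96, 130.03 and 194 in the LN-LEC libraries, 138, 136 and 199 in the LN-BEC libraries, and 8622, 7214 and 7176 in the D-LEC libraries. No lymph node library exceeded 199 for either gene, and the D-LEC libraries lay far above this. The calcium-activated potassium channel gene Kcnn3 was 68.7-fold, the adhesion protein gene Lrrn2 69.9-fold, the secreted protein gene Dmkn 51.4-fold (95% counting interval 33.6 to 82.99) and the motor gene Myo5b 72.8-fold higher. Kcnn3 closed a run with Pygo2, Pbxip1 and Pmvk at mm9 chr3:89234759-89476416.

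The most abundant genes with at least 4-fold higher levels in the diaphragm were Apold1, Cd9, Igfbp5, Ltbp4 and Tspan18. Apold1, an early-response gene of endothelium, measured 8752, 10929, 9807 and 22399 in the LN-LEC libraries, 10466, 10360.4 and 20217 in the LN-BEC libraries, and 164952, 190233 and 196919 in the D-LEC libraries and ranked 9 by FPKM in D-LEC. LN-LEC replicate 4 and LN-BEC replicate 3 held the highest values of their groups. The tetraspanin genes Cd9 and Tspan18 were 5.92 and 9.74-fold higher, and Cd9 measured 6673, 5888, 5675 and 7819.8 in the LN-LEC libraries, 7751, 6394 and 7669 in the LN-BEC libraries, and 37308, 45175 and 39899.5 in the D-LEC libraries. Ltbp4, which anchors latent TGF-beta in the matrix, was 6.48-fold higher and closed a run with Snrpa, Itpkc, Adck4 and Numbl at mm9 chr7:27972025-28122631. The longest run held 6 diaphragm-high genes, Fam65a, Ctcf, Rltpr, Acd, Pard6a and Gfod2, at chr8:108129129-108282507. In a list of 37 matrix genes 4 (10.8%) were diaphragm-high and 2 (5.41%) lymph-node-high, with 14 (37.8%) called in each direction. Both imprint shares were below those of all genes, 13.1% and 10.4%. Of all genes, 25.7% were called higher and 23.8% lower. The basement membrane collagen gene Col18a1 was 5.64-fold and the protease inhibitor gene Timp3 2.71-fold higher in the diaphragm, while Timp4 was 10.04-fold higher in the lymph node.

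Cytoskeletal genes were the largest functional group on the diaphragm side. Of 43 tested, 16 were diaphragm-high and 4 lymph-node-high, and edgeR called 26 lower and 10 higher in the lymph node with a median log2 difference of -0.64. This compares with 13.1% diaphragm-high and 23.8% called lower among all genes. The intermediate filament gene Vim measured 17319, 16732, 17723 and 20065 in the LN-LEC libraries, 18955, 17391 and 18000.4 in the LN-BEC libraries, and 58999, 47790.1 and 55811 in the D-LEC libraries, 3.005-fold higher in the diaphragm with no overlap. Lmna, of the nuclear lamina, was 4.37-fold, the tropomyosin gene Tpm4 3.40-fold, and the focal adhesion genes Zyx and Pxn 2.74 and 2.30-fold higher. Tubb2b, a beta tubulin, and Fhl2, a LIM-domain protein, had the highest folds at 10.5 and 10.1. Some gene families, picked after their values were seen, had diaphragm-high members and no lymph-node-high one, namely Chmp with 6 of 10, Actr with 5 of 9 and Anxa with 5 of 10. Other trafficking families did not, as Vps had 6 diaphragm-high and 4 lymph-node-high genes of 30 and Tmed 3 lymph-node-high and no diaphragm-high gene of 10. Anxa2 was 3.12-fold higher. Under scaling factors of edgeR 1 Chmp gene was lymph-node-high.

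Immediate early genes, which answer stimuli and tissue handling within minutes, were mostly lower in the lymph node. Of 37 tested, 25 were called lower and 2 higher, with a median log2 difference of -1.24, but 8 were diaphragm-high imprint genes and 2 were lymph-node-high. Jun measured 16458, 13189.98, 15478 and 27683 in the LN-LEC libraries, 24355, 21799 and 40276 in the LN-BEC libraries, and 59100.2, 65709 and 59860.4 in the D-LEC libraries. LN-BEC replicate 3 and LN-LEC replicate 4 were the highest of their groups and still below each D-LEC library. Klf6 was 3.16-fold, the phosphatase gene Dusp5 14.6-fold (95% counting interval 8.70 to 26.7), the heat shock gene Hspa1b 4.91-fold and Cyr61, a target of mechanical signalling, 3.35-fold higher. Hspa1b has a near-identical neighbour, so its reads are uncertain. Atf3 separated the tissues too but differed between the lymph node populations, at 93.3, 72.4, 87.1 and 229 in the LN-LEC libraries, 168, 153 and 420.1 in the LN-BEC libraries, and 1689, 1929.7 and 2055 in the D-LEC libraries. When counts were scaled by library totals, 12 were diaphragm-high and none lymph-node-high. Node and diaphragm were digested by the same protocol but as different tissues, so a response to dissociation and a difference between tissues cannot be told apart for these genes.

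Genes of glycolysis and hypoxia had 7 diaphragm-high (22.6%) and 5 lymph-node-high (16.1%) members of 31, against 13.1% and 10.4% of all genes. Of these 31, 11 (35.5%) were called higher and 9 (29%) lower, against 25.7% and 23.8%, with a median log2 difference of -0.02. Egln3, an oxygen-sensing hydroxylase, was 10.5-fold, the lactate exporter gene Slc16a3 4.30-fold, Hk2 3.68-fold, Adm, which encodes adrenomedullin, 2.94-fold and Ndrg1 2.57-fold higher in the diaphragm. Pdk1, which limits pyruvate entry to mitochondria, was 2.86-fold higher in the lymph node.

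Muscle and mesothelium surround lymphatic vessels of the diaphragm, and most of their markers were lower in the lymph node. Of 22 muscle markers, 17 were called lower in the lymph node, with a median log2 difference of -4.07, and 7 were diaphragm-high. Mb, which encodes myoglobin, measured 3.89, 0, 0 and 0 in the LN-LEC libraries, 0.875, 0.865 and 1.05 in the LN-BEC libraries, and 136, 208 and 306 in the D-LEC libraries. Tnnt3, a fast troponin, measured 0, 0, 2.26 and 2.52 in the LN-LEC libraries, 5.25, 1.73 and 0 in the LN-BEC libraries, and 216, 289.6 and 278 in the D-LEC libraries. The summed muscle markers nevertheless were level across populations, at 3935 to 4669 over LN-LEC, 3545 to 4408 over LN-BEC and 3712 to 4716 over D-LEC libraries, because Ttn was 4.06-fold higher in the lymph node and made up most of the sum there. Of 8 mesothelial markers, 6 were called lower and 5 were diaphragm-high. Msln, the mesothelial antigen gene, measured 10.4, 2.54, 2.26 and 4.40 in the LN-LEC libraries, 8.75, 0.865 and 6.30 in the LN-BEC libraries, and 371, 103 and 354 in the D-LEC libraries, and Upk3b was 31.1-fold higher. The mesothelial sum was 87.6 to 441, 143 to 1099 and 782 to 2356. Per the study, average purity after the sort was lowest for D-LEC and highest for LN-LEC. The part of muscle and mesothelial cells in the other diaphragm-high genes was not tested.

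The number of diaphragm-high muscle markers was 3 without LN-BEC replicate 3, and that of mesothelial markers was 2 without LN-LEC replicate 1, without LN-LEC replicate 4 or without LN-BEC replicate 2. Fibroblast markers gave 1 call of 11 and no imprint gene, with overlapping sums of 4883 to 10458, 3277 to 12033 and 3777 to 11421. Markers of pericytes and smooth muscle gave 8 calls higher and 1 lower of 10, with Rgs5 and Cnn1 in the imprint, at 62.1-fold and 9.05-fold (95% counting interval 4.39 to 22.5) higher in the lymph node.

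**Figure D4:**
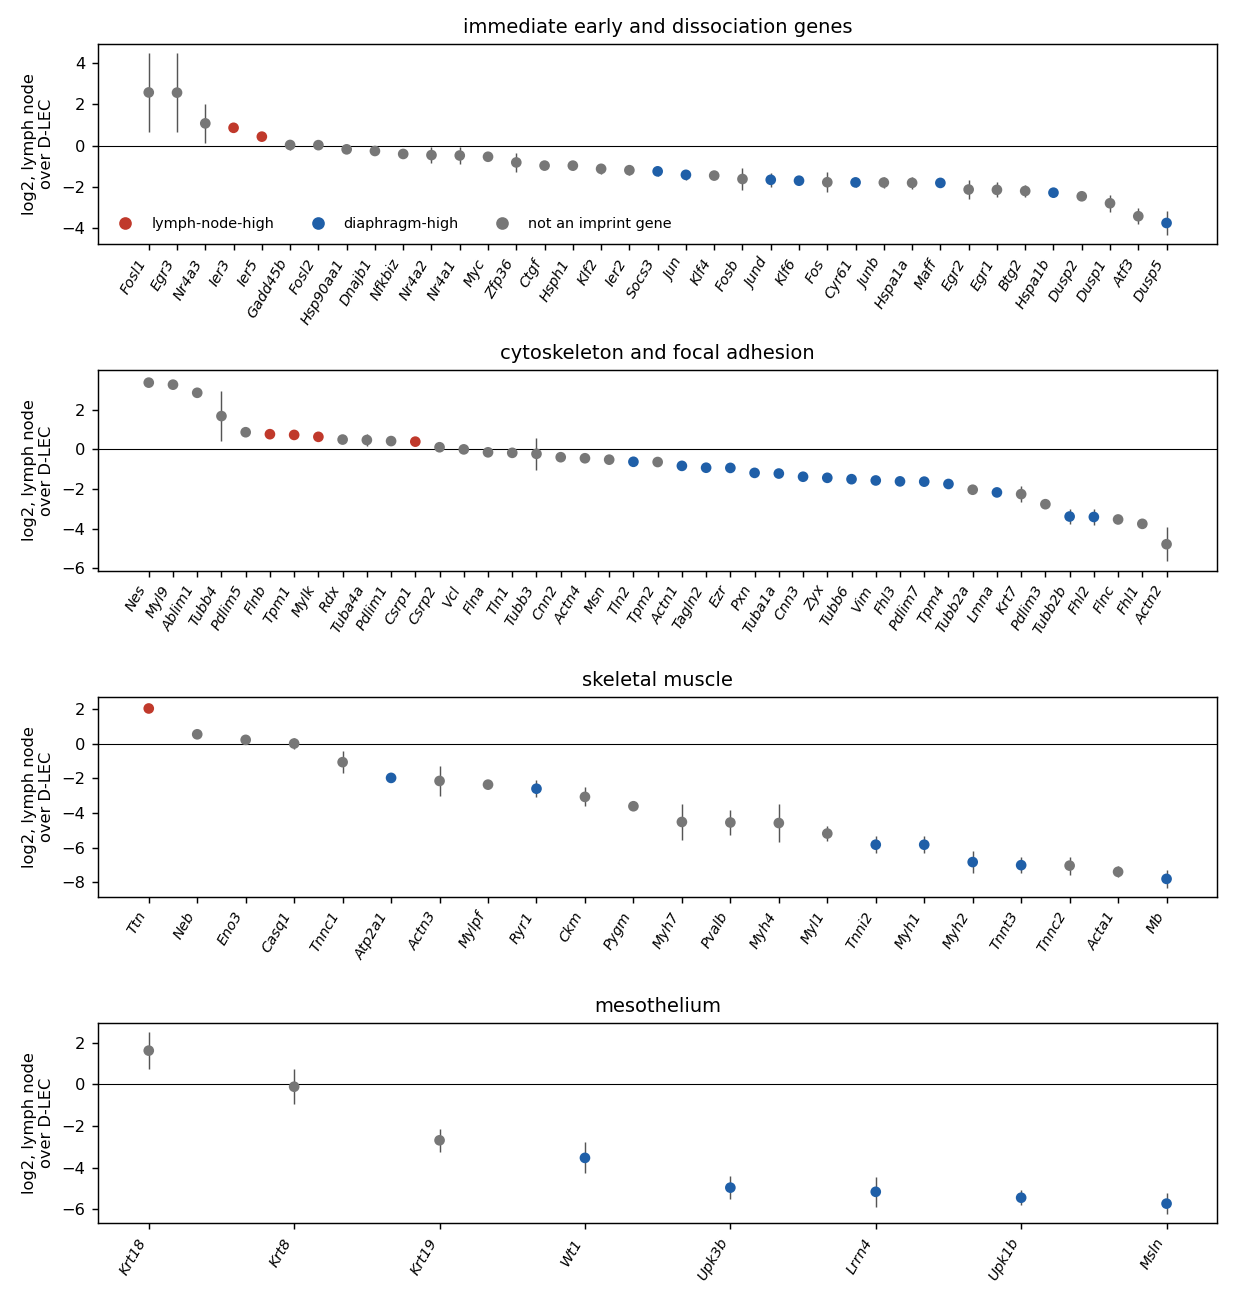
Each point is 1 gene, placed by its log2 difference between the mean of the lymph node populations and D-LEC from edgeR, with the standard error as a bar, for immediate early genes, cytoskeleton, skeletal muscle and mesothelium. Points below 0 are lower in the lymph node, blue points are the 8, 16, 7 and 5 diaphragm-high genes of the respective panels, red points are lymph-node-high and grey points are not imprint genes.

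**Figure D5:**
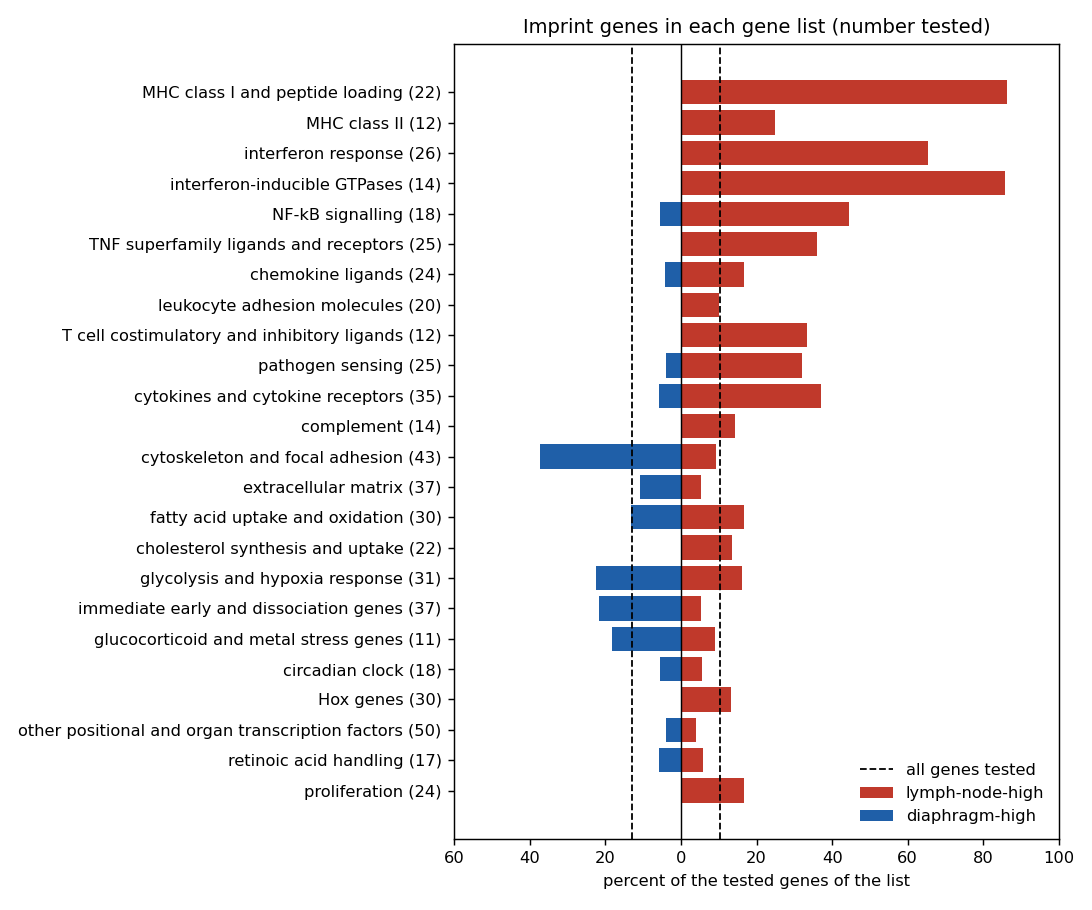
Bars give the percent of tested genes of each functional list that were lymph-node-high (red, to the right) or diaphragm-high (blue, to the left), with the number tested in parentheses and dashed lines at the shares among all genes tested, 10.4% and 13.1%. The MHC class I, interferon-inducible GTPase and interferon response bars reach furthest right, and the cytoskeleton bar furthest left.

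Endothelial identity genes are set beside the shares of all genes, 10.4% lymph-node-high, 13.1% diaphragm-high, 25.7% called higher and 23.8% called lower. Of 12 pan-endothelial genes, 7 (58.3%) were called higher and 3 (25%) lower. Imprint genes among them were Erg, 1.86-fold higher in the lymph node, and Tie1, 1.60-fold higher in the diaphragm. This is 8.33% in each direction, near the shares of all genes. All 7 lymphatic markers were called lower, and 6 of them lay below D-LEC in every lymph node library, LN-LEC included, with Prox1 as the exception. Podoplanin, one of the 6, was used in the sort. The summed level of the lymphatic markers was 152644 to 172642 over LN-LEC, 7337 to 14277 over LN-BEC and 623703 to 653081 over D-LEC libraries, and none met the 2-fold limit. Markers that separate lymphatic from blood endothelium largely cannot meet this limit, so their absence from the imprint is set by the rule. Calls of lymphatic and blood markers also depend on lineage, because the contrast averages LN-LEC with LN-BEC. Prox1 was called lower although its LN-LEC and D-LEC values overlapped. Of 8 blood endothelial markers, 7 were called higher and 1 lower, and 1 (12.5%), Kdr, was in the imprint at 1.42-fold higher in the lymph node.

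At the 2-fold limit itself, C1rl and Nr3c2 lay just inside with lymph node means that differed by 1.999 and 1.997-fold, at folds of 15.1 toward the lymph node and 4.82 toward the diaphragm. Prom2 and Snx10 lay just outside, both at 2.001-fold, and were higher in the lymph node by at least 34.3-fold and 7.28-fold. Prom2 was one of the 44 genes high in LN-LEC replicate 4 and LN-BEC replicate 3, and without these libraries its lymph node means of 33.1 and 28.6 differed by 1.16-fold, inside the limit, and the bound was 9.99-fold.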

How the data were processed

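Per the study's methods, node and diaphragm endothelial cells were sorted, cDNA was prepared by the Ovation V2 kit, and paired reads were trimmed and aligned to mm9 with STAR. The authors deposited read counts per gene symbol from featureCounts 1.4.4. Strand was not used as far as the sources state, and reads that fitted several genes were not counted, so close copies and overlapping genes are uncertain. Totals were 22429940 to 48906070 counts, and a floor of 3 counts per library limits what can be seen. Floors and exact Poisson intervals of ratios cover counting error only, while SD and SE are over libraries.

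Here counts were divided by DESeq2 size factors to give normalized counts. Named genes with a mean of at least 1 in at least 1 population were tested, and predicted, RIKEN and clone symbols were left out. Folds are ratios of means, with the lymph node mean taken as the mean of the LN-LEC and LN-BEC means, and SD is over the libraries of a population. The quasi-likelihood test of edgeR 4.0.16 (TMM, robust) was fitted to all 10 libraries in R 4.3.3. Its contrast set the mean of both lymph node populations against D-LEC, with Benjamini-Hochberg adjustment over all genes tested and a threshold of 0.05. DESeq2 1.42.0 and limma 3.58.1 (voom), other scalings, filters and ratio limits, and leaving out each library were alternatives. FPKM was computed from counts and exon length. The script was tested on simulated data. Replicate libraries correlated at 0.973 to 0.987, and no pair of them agreed within sampling noise.

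Named genes were those of functional and cell type lists, the 15 in each direction with the largest fold and a mean of at least 100, the 5 in each direction with the highest FPKM and a fold of at least 4, the 2 just inside and 2 just outside the 2-fold limit, and runs of 4 or more neighbouring imprint genes. The members and lists were chosen with earlier results of these data known. Gene coordinates are those of the files (mm9). Promoter windows of 300 bases came from RefSeq (GRCm38.p6) and were matched by symbol for 11967 of 15327 genes. For 2 genes of the lists the values are not reported here.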

Additional observations from a re-analysis of the deposited data

Results flagged for a closer look

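Among 39 named genes, 5 had a library in LN-LEC that lay far from the other 3, measured as its gap to the nearest library divided by the whole range of the group. This value was 0.915 for Lpo, 0.881 for Cxcl9, 1 for Mb, 0.864 for Comp and 0.84 for Apold1. Chance gives about 1 such group in 20. The library was LN-LEC replicate 4 for Lpo and Apold1, LN-LEC replicate 3 for Cxcl9 and LN-LEC replicate 1 for Mb and Comp. For Mb that library held 3.89 normalized counts and the other LN-LEC libraries 0.

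For 8 named genes the change from D-LEC to the lymph node differed between LN-LEC and LN-BEC in edgeR's test of LN-LEC against LN-BEC, although the rule holds this difference to 2-fold. As LN-LEC minus LN-BEC on the log2 scale, the difference was -0.83 for Csf2rb, -0.71 for Apoe and -1.03 for Kcnn3, and 0.94 for Dnahc8, 0.92 for Igfbp5, 0.88 for Fam181b, 0.55 for Tmem176a and 0.45 for Clu. Both lymph node populations lay on the same side of D-LEC in each of these genes.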

How the results depend on the processing

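The total counts of imprint genes and of calls stayed within 1.5 times the reported ones under the other alternatives tried, with 3 exceptions. Without a limit on the ratio of the lymph node means there were 2442 lymph-node-high genes, more by construction. With the 7 lymph node libraries as 1 group, edgeR called 2553 genes higher and 2292 lower, against 3941 and 3643, and the spread between LN-LEC and LN-BEC then counts as error. Leaving out each library gave 1649 to 1906 lymph-node-high and 2026 to 2407 diaphragm-high genes, and 3441 to 3934 calls higher and 3181 to 3674 lower. DESeq2 called 4068 and 3671, voom 3991 and 3721. Scaling by library totals gave 1232 and 2117 imprint genes and calls of 3342 and 4172. Where both pairwise edgeR tests against D-LEC also had to pass, 1375 lymph-node-high and 1564 diaphragm-high genes were left. The median of all genes moved by 0.04 under TMM and by -0.04 under totals on the log2 scale. Of 701 values of the log2 difference for 39 named genes under the alternatives, 698 kept direction and call and 3 lost the call, namely Lpo and Mup5 under voom and Mup5 without D-LEC replicate 1. Small list counts moved with single libraries: lymph-node-high Hox genes were 2 instead of 4 without LN-LEC replicate 1, LN-LEC replicate 2 or LN-BEC replicate 2, and lymph-node-high matrix genes were 5 instead of 2 without D-LEC replicate 1, 4 without LN-LEC replicate 4 or LN-BEC replicate 2, and 1 without LN-BEC replicate 3. The motif shares restricted to members of at least 2-fold gave no value, as under 80% of them had a promoter. No paired analysis was possible because the labels give no pairing, and the replicate numbers were assigned here. Depth limits the 125 and 56 genes whose lower side had at most 3 counts in every library.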

Other observations

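Ribosomal protein genes had more lymph-node-high than diaphragm-high members. Of 44 Rps genes tested, 15 were lymph-node-high and 2 diaphragm-high, and of 48 Rpl genes 10 and 2. Under scaling by library totals these were 10 and 3 for Rps and 9 and 2 for Rpl. Families of mitochondrial proteins had no common direction, with 5 and 0 of 14 Ndufa genes, 0 and 1 of 10 Ndufb genes, 3 and 2 of 24 Cox genes, 0 and 2 of 10 Tomm genes, 6 and 1 of 47 Mrpl genes and 6 and 3 of 29 Mrps genes, the last 2 becoming 3 and 3 and 1 and 4 under library totals. Of Pcdhb genes, 8 of 20 clustered protocadherins were diaphragm-high and none lymph-node-high.

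The remaining lists are set beside all genes, of which 10.4% were lymph-node-high, 13.1% diaphragm-high, 25.7% called higher and 23.8% called lower. Proliferation genes had 4 lymph-node-high members of 24, with 8 called higher and 1 lower by edgeR. Under library totals the imprint held 1 lymph-node-high and 2 diaphragm-high of them, and 1 lymph-node-high when both pairwise tests had to pass. Complement genes had 11 of 14 called higher and 2 lower, and 2 in the imprint, C1ra at 4.64-fold and Cd46 at 2.01-fold. Atypical chemokine receptors had 3 of 5 called higher and 2 lower. Circadian genes had 1 of 18 called higher and 2 lower, and glucocorticoid and metal stress genes 1 of 11 higher and 5 lower. Of marker lists not described above, 3 of 4 plasma cell markers were called higher and 1 lower, 4 of 6 adipocyte markers higher and none lower, 2 of 6 hepatocyte markers lower, 1 of 5 Schwann cell markers higher, and 1 of 4 platelet markers higher and 3 lower. None of 2 erythroid markers was called by edgeR. The share of lymph-node-high genes by chromosome ranged from 7.95% to 12.5% and that of diaphragm-high genes from 11.1% to 15.9%.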
